A study of Mus musculus with 6 samples.

Results

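Ccl2, Ccl7, Ccl11, Ccl12 and Ccl8 form a cluster of chemokine genes on mouse chromosome 11, and their mRNAs were followed in dermal fibroblasts 1, 2 and 4 h after addition of interleukin-1 (IL-1). The members were taken by gene name from the array files, which gave 6 probes for these 5 genes out of 41174 probes without control function. All 6 probes passed the filter on dim signal, that of Ccl11 through treated RNA alone. The 5 genes belong to 22213 measured genes. The cells were cultured dermal fibroblasts of C57BL/6 mice, kept in serum-containing medium. Treated cells received IL-1 at 20 ng/ml for 1 h, 2 h or 4 h, and untreated cells (0 h) were the reference for all 3 times. Each time was hybridised on 2 two-colour arrays with the dyes exchanged, so that 6 arrays carried treated RNA in 1 dye and untreated RNA in the other. The 2 arrays of a time counted as 1 sample. The age of the mice, the number of cultures, the form of IL-1 and whether 1 untreated extract served all arrays are not given in the sources used here.

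Chemokines are small secreted proteins that attract white blood cells along a gradient. Ccl2 (MCP-1) and Ccl7 (MCP-3) are the main mouse ligands of the receptor Ccr2, through which inflammatory monocytes leave the bone marrow and enter tissue. Ccl12 (MCP-5) also acts on Ccr2, Ccl11 (eotaxin) attracts eosinophils through Ccr3, and Ccl8 attracts T cells through Ccr8 in mice. Fibroblasts are a known source of several of these factors in inflamed skin, and IL-1 drives such genes through NF-kB and MAP kinases.

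In IL-1-treated fibroblasts the members differed in the size and course of their ratios, and differences between members were not tested. Ccl2 and Ccl7 were already about 6.60-fold and 5.12-fold higher at 1 h and stayed at that height to 4 h. Ccl11 climbed in steps, to 1.88-fold at 4 h, or 4.50-fold with signals as processed by the scanner software. Ccl8 rose slightly, by a mean log2 ratio of 0.23, and Ccl12 did not pass the test in either direction. Signals of Ccl11, Ccl12 and Ccl8 were dim, so the sizes of their ratios depend on how background is handled. Each value is the log2 ratio of treated to untreated normalized signal, given first for the array with treated RNA in Cy5 and then for the array with treated RNA in Cy3. The mean response over the 3 times was tested against 0, and the slope per doubling of time against a flat course, with limma and a Benjamini-Hochberg adjustment over all genes measured.

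**Figure D1:**
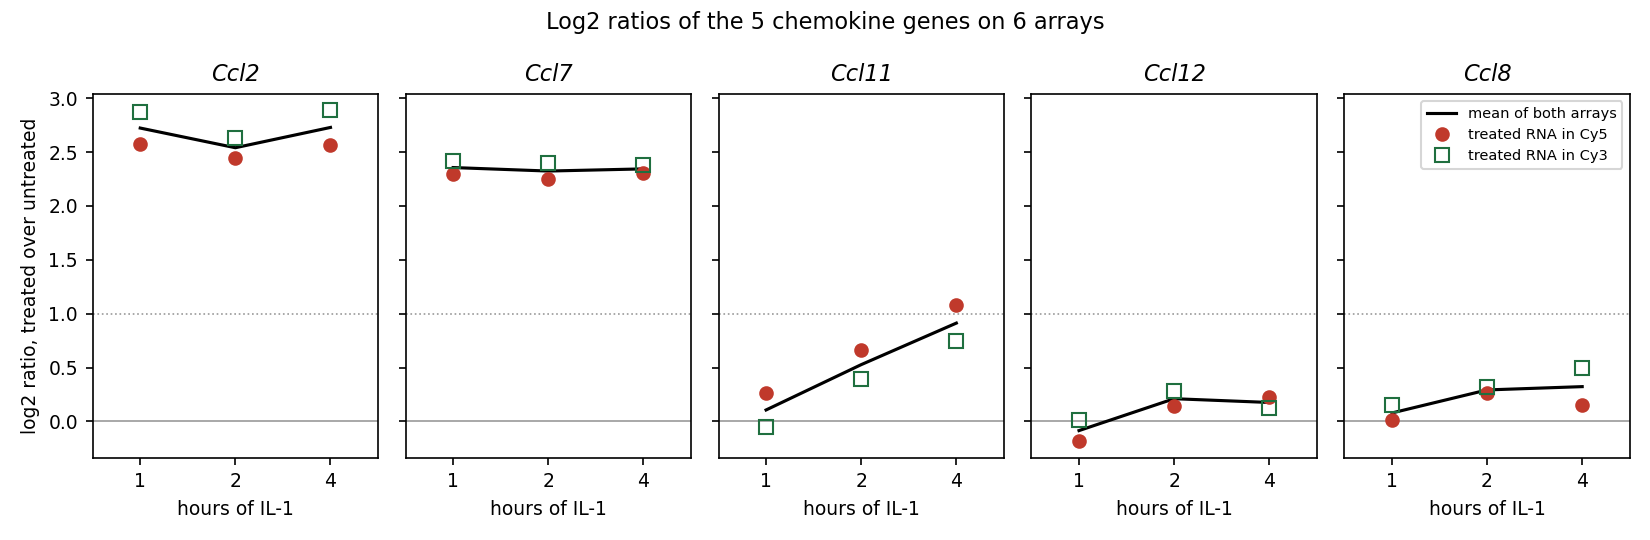
Log2 ratios of treated over untreated RNA (vertical axis) after 1, 2 and 4 h of IL-1 (horizontal axis) for the 5 genes. Filled circles are arrays with treated RNA in Cy5, open squares arrays with treated RNA in Cy3, and the line joins their means. Solid and dotted grey lines mark 0 and 1. Ccl2 and Ccl7 lie above 2 at all times, Ccl11 climbs to 0.91 at 4 h, and Ccl12 and Ccl8 stay below 0.5.

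Ccl2, the major monocyte attractant, had log2 ratios of 2.58 and 2.87 at 1 h. They were 2.45 and 2.63 at 2 h and reached 2.57 and 2.89 at 4 h. All 6 arrays lay above 2.4, and on both orientations the lowest value was that of 2 h. The mean response was 2.66 ± 0.042 (SE, n = 3 times, limma adjusted p = 1.92e-05), and the higher level was seen on 6 of 6 arrays. With the direction of the labels, Ccl2 ranked 5 by mean response among all genes measured, 6 at 1 h and at 2 h, and 4 at 4 h, counted from the highest ratio (with signs turned, from the lowest).

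The Ccl2 probe reached the ceiling of the scanner. With treated RNA in Cy5 the mean signal was 65212 at 1 h, 65212 at 2 h and 65213 at 4 h, and every pixel of the spot was saturated (29 of 29, 32 of 32 and 29 of 29). These 3 arrays can therefore show no difference between times in treated RNA, and their ratios are held down. With treated RNA in Cy3 no pixel was saturated, and the signals were 39731 at 1 h, 42876 at 2 h and 41547 at 4 h. On those 3 arrays the untreated signals in Cy5 were 17447, 20582 and 15890. The dip of the ratio at 2 h thus came with the highest untreated signal, while the treated signal was not lower at 2 h than at 1 h or 4 h. From the unsaturated arrays alone the fold was 7.31 at 1 h, 6.21 at 2 h and 7.41 at 4 h, and the mean response was 2.80 (limma adjusted p = 3.7e-05). With saturated spots left out on all arrays, an alternative chosen after seeing the data for ranks, Ccl2 ranked 4 by mean response and 6, 6 and 3 at 1, 2 and 4 h.

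Untreated fibroblasts already gave a strong Ccl2 signal. In Cy3 it was 4770 to 5672 on the 3 arrays, where the 95th percentile of the negative control spots lay between 113 and 119. After normalization of each channel the treated levels of Ccl2 ran from 15.30 to 16.21 and the untreated levels from 12.73 to 13.58 on the log2 scale. The groups did not overlap, and the share of all genes without overlap was not counted.

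**Figure D2:**
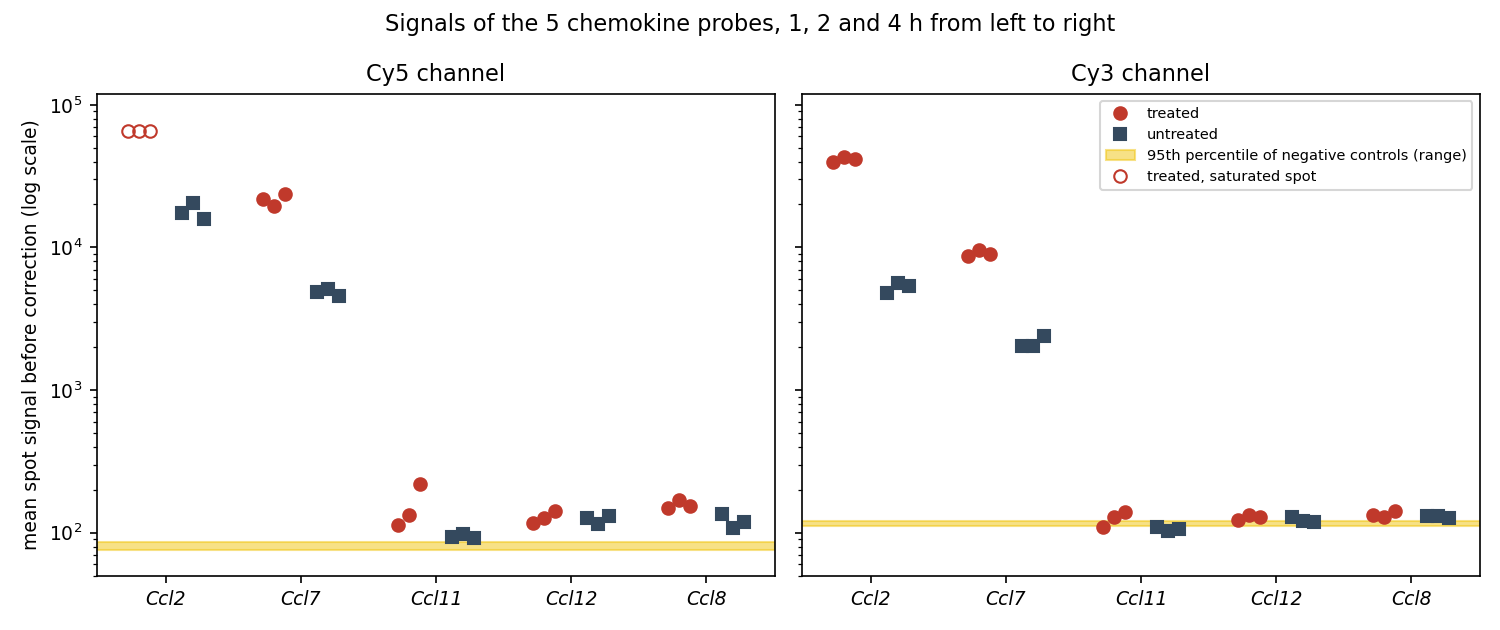
Mean spot signal before correction (vertical axis, log scale) for the probe used for each gene, in the Cy5 channel (left) and the Cy3 channel (right). Red circles are treated and blue squares untreated RNA, with 1, 2 and 4 h from left to right within each set, open circles are saturated spots, and the yellow band spans the 95th percentile of negative control spots over the arrays. Treated Ccl2 sits at 65212 to 65213 in Cy5, Ccl7 is bright in both RNAs, and Ccl11, Ccl12 and Ccl8 lie between 91.5 and 218.1 in both dyes.

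Ccl7, which shares Ccr2 with Ccl2, had log2 ratios of 2.30 and 2.41 at 1 h. At 2 h they were 2.25 and 2.40, and at 4 h 2.30 and 2.38. The 6 values lay between 2.25 and 2.41, and no time stood apart from another in both orientations. The mean response was 2.34 ± 0.022 (SE, n = 3 times, limma adjusted p = 1.82e-06), with Ccl7 higher on 6 of 6 arrays. By mean response it ranked 7 among all genes measured, counted in the same way.

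No Ccl7 spot was saturated. Treated signals were 21819, 19596 and 23611 in Cy5 at 1, 2 and 4 h, and 8720, 9665 and 9028 in Cy3. Untreated signals on the same arrays were 2025, 2053 and 2403 in Cy3, and 4872, 5101 and 4562 in Cy5. In each dye every treated signal was higher than every untreated signal, and the share of all genes separated in this way was not counted. A second Ccl7 probe, placed 0.2 kb away, gave mean log2 ratios of 2.26, 2.24 and 2.23 at 1, 2 and 4 h, against 2.36, 2.32 and 2.34 for the brighter probe. The second probe passed as a feature of its own (2.25 ± 0.023, SE, n = 3 times, limma adjusted p = 4.02e-07 over 30583 probes).

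The time course of Ccl2 and Ccl7 was flat by the slope test. The slope per doubling of time was 0.0029 for Ccl2 (95% interval -0.12 to 0.13, limma adjusted p = 0.993). For Ccl7 it was -0.0062 (95% interval -0.074 to 0.061, limma adjusted p = 0.965). These intervals bound a steady change between 1 h and 4 h but do not show that the levels were equal, and for Ccl2 they include the saturated arrays.

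Ccl11, the eosinophil attractant eotaxin, had log2 ratios of 0.27 and -0.053 at 1 h. At 2 h they were 0.66 and 0.39, and at 4 h 1.08 and 0.75. The arrays of 1 h lay on both sides of 0, and those of 2 h and 4 h were all higher in treated cells. Within the arrays with treated RNA in Cy5 the step was 0.40 from 1 h to 2 h and 0.42 from 2 h to 4 h. With treated RNA in Cy3 these steps were 0.45 and 0.35. The slope was 0.40 ± 0.027 per doubling of time (SE, n = 3 times, limma adjusted p = 0.00866) and positive in both orientations. Of all genes measured, 0.162% had a rising and 0.212% a falling slope by this test, and Ccl11 was the member that passed it.

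The mean response test takes its spread from the 3 times, so the climb of Ccl11 widens its SE there. The mean response of Ccl11 was 0.52 ± 0.14 (SE, n = 3 times, limma adjusted p = 0.0487), close to the threshold of 0.05. That call ended under 7 of 16 alternatives. It did so without the 2 h sample (mean 0.51), the 4 h sample (0.32) or the arrays with treated RNA in Cy5 (0.36), with limma adjusted p = 0.186, 0.0914 and 0.0800. It also did so with a trended robust variance (0.52), a smaller background offset of 16 (0.84), and signals as processed by the scanner software or the authors' value table (1.40 each), with limma adjusted p = 0.247, 0.0763 and 0.104. The slope call ended with processed signals and with the smaller offset (limma adjusted p = 0.514 and 0.250). With these settings the rise was steeper and its slope larger, at 0.88 and 0.62. Ccl11 then stood at 1.32-, 3.08- and 4.50-fold at 1, 2 and 4 h with processed signals, and at 1.14-, 1.89- and 2.68-fold with the smaller offset.

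The Ccl11 signals were dim. With treated RNA in Cy5 they were 114.1, 132.5 and 218.1 at 1, 2 and 4 h, and with treated RNA in Cy3 109.7, 128.6 and 139.0. Untreated signals on the same arrays were 108.9, 103.0 and 105.7 in Cy3, and 93.4, 97.7 and 91.5 in Cy5. In Cy3 none of the 3 untreated signals exceeded the 95th percentile of the negative controls, whereas 2 of the 3 treated signals did, those of 2 h and 4 h. In Cy5 all treated and all untreated signals exceeded it. The scanner flagged the untreated spot as well above background on 5 of 6 arrays and the treated spot on 6 of 6. Ccl11 thus entered the genes measured only through treated RNA, the group where it was higher. The untreated level lay near the background of the array, and the fold of Ccl11 depends on how that background is handled.

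Ccl12 and Ccl8 are the members farthest from Ccl2, and their promoter windows are shown because these are the members found in the promoter table used here. The windows hold 250 bases before and 50 bases after the start of the gene from RefSeq, build GRCm38.p6, plus strand, and capitals mark the motif TATAAA.
Ccl12, chr11:82101595-82101894: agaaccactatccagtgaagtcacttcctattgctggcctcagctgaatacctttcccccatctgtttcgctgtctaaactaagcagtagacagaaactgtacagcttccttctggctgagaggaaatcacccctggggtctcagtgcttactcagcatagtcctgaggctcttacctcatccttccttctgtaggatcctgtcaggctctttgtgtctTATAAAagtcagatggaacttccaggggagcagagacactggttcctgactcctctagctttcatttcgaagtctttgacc
Ccl8, chr11:82114935-82115234: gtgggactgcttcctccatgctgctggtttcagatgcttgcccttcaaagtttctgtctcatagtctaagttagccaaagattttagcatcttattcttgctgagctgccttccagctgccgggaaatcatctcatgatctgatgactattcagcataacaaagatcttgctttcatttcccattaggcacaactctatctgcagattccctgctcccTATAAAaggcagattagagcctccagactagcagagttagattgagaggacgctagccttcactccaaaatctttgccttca
The motif begins 31 bases before the start of Ccl12 and 32 bases before that of Ccl8, and 8.32% of 32851 promoter windows hold it on this strand. In a global alignment 175 of 281 aligned bases were identical (62.3%), with a longest shared run of 11 bases. Neither window held TGANTCA (the AP-1 motif, in 7.81% of windows), TTGCNNAA (C/EBP, 10.8%), TTCNNNGAA (STAT, 8.30%), CCAAT (37.4%) or the NF-kB consensus (8.46%), each searched on both strands. This says only that these letters do not stand in these windows. Windows were matched for 2 of the 5 members.

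Ccl8 had log2 ratios of 0.0091 and 0.15 at 1 h. At 2 h they were 0.26 and 0.32, and at 4 h 0.15 and 0.49. All 6 arrays were above 0, and the array of 4 h with treated RNA in Cy5 was lower than that of 2 h in the same orientation. The mean response was 0.23 ± 0.050 (SE, n = 3 times, limma adjusted p = 0.0256), or 1.17-fold. Treated signals were 148.2, 169.1 and 153.3 in Cy5 at 1, 2 and 4 h and 132.4, 129.1 and 141.6 in Cy3. Untreated signals were 131.5, 130.2 and 126.6 in Cy3 and 134.9, 107.3 and 118.7 in Cy5 on the same arrays. In Cy3 the groups overlapped, and in Cy5 they did not. How many genes of such dim signal show no overlap was not counted, so this is description alone. The call ended without the 2 h sample (limma adjusted p = 0.147), without the 4 h sample (0.0803), without the arrays with treated RNA in Cy3 (0.0613) and with processed signals (0.0883), where the mean was 0.56.

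Ccl12 had log2 ratios of -0.18 and 0.014 at 1 h. At 2 h they were 0.14 and 0.28, and at 4 h 0.22 and 0.13. The values of 2 h and 4 h were above 0 on all 4 arrays, and those of 1 h were on both sides of it. The mean response was 0.10 ± 0.059 (SE, n = 3 times, 95% interval -0.044 to 0.25, limma adjusted p = 0.290). Without the 1 h sample the mean was 0.19 and passed (limma adjusted p = 0.0103). Treated signals were 116.8 to 142.0 and untreated signals 115.3 to 130.2 in Cy5, and the groups overlapped there as in Cy3.

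The slopes of Ccl12 and Ccl8 were positive but did not pass. For Ccl12 the slope was 0.13 ± 0.047 and for Ccl8 0.12 ± 0.034 per doubling of time (SE, n = 3 times, limma adjusted p = 0.401 and 0.283). For Ccl12 and Ccl8, whose signals were between 107.3 and 169.1 in all channels, small ratios do not show that the genes did not respond, since the added offset of 50 compresses ratios at this brightness.

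Across all genes measured, 10.5% rose and 10.8% fell in the mean response, against 4 of the 5 members that rose and 0 that fell. Of these 4, Ccl11 entered the genes measured through treated RNA alone, the group where it was higher, so its place in the count is not independent of the filter. The split of calls over all genes was 2335 higher and 2396 lower, and 1126 higher and 5754 lower when arrays were centred on their median. Under that centring the same 4 members rose. Without the 2 h sample, without the 4 h sample, and with processed signals or the value table, 2 of the 5 rose, Ccl2 and Ccl7. With processed signals 3.37% of all genes rose and 2.63% fell. Fewer of all genes were called without the 2 h sample too, with the counts given at the end of the text. For the fit without the 4 h sample the share of all genes is not given. The loss of member calls there cannot be set against a general loss of calls. By size, Ccl2 and Ccl7 were at least 2-fold higher in both orientations at each time. Of all genes, 0.212% were so at 1 h, 0.18% at 2 h and 0.135% at 4 h. The 3 times were all set against the untreated condition, so they are not independent comparisons.

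**Figure D3:**
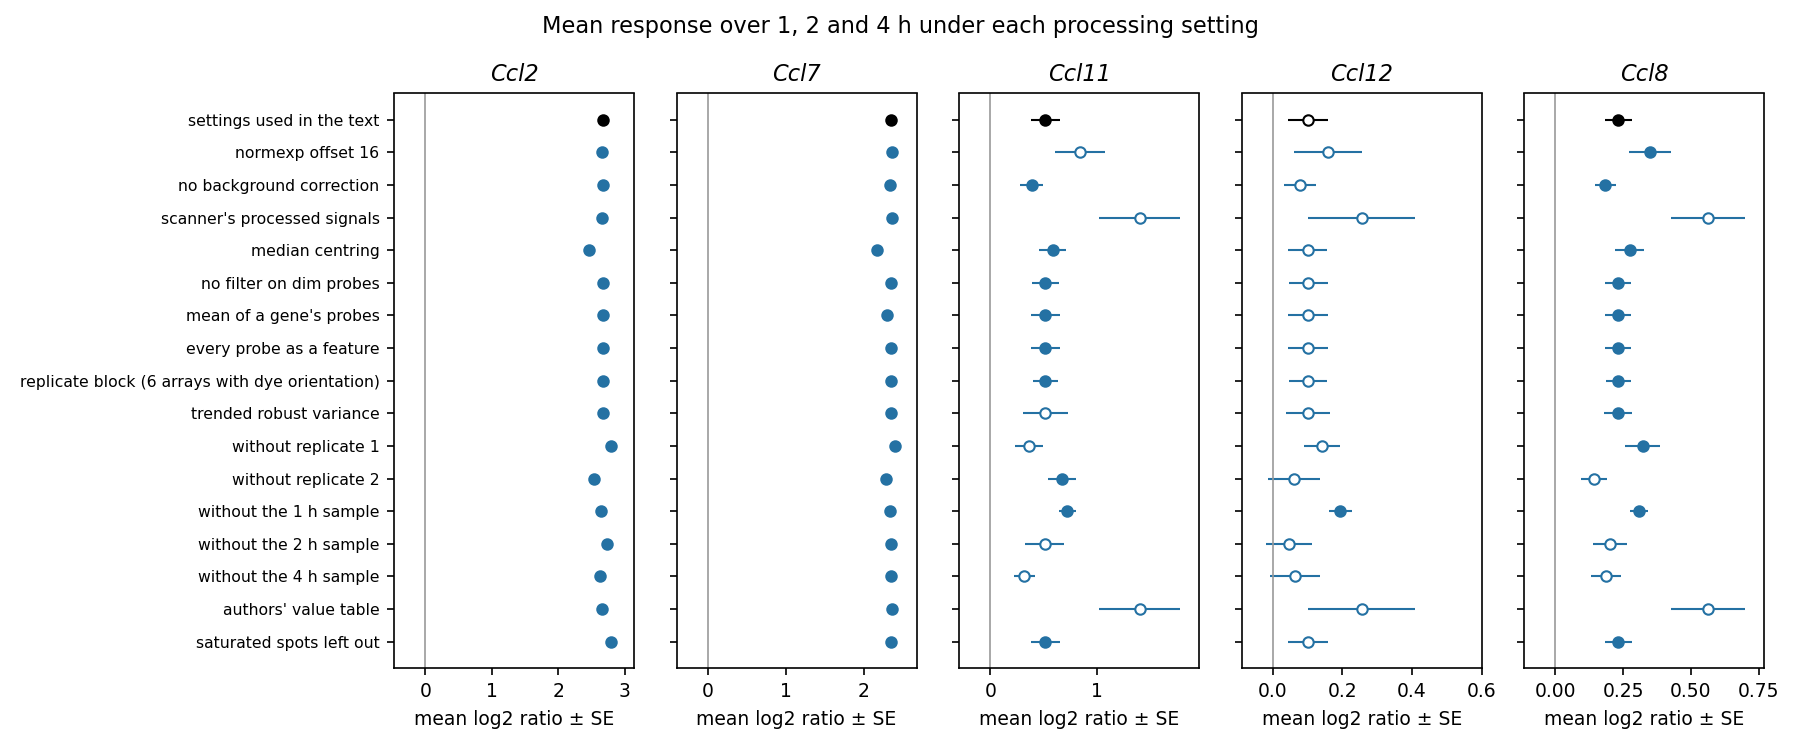
Mean log2 ratio over the times used (horizontal axis, one scale per gene) with its SE under each processing setting (vertical axis). Replicate 1 stands for the arrays with treated RNA in Cy5 and replicate 2 for those with treated RNA in Cy3. Filled points passed an adjusted p of 0.05 in limma, open points did not, and black points are the settings used in the text. Ccl2 stays between 2.46 and 2.80 and Ccl7 between 2.17 and 2.40, while Ccl11 ranges from 0.32 to 1.40.

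With the settings used in the text, the measured genes on either side of the cluster stayed close to 0. In the array files' coordinates, which come with no genome build in those sources, the Ccl2 probe lies at chromosome 11, 81776808 to 81776867. The Ccl7 probes lie at 81786662 to 81786721 and 81786814 to 81786873, the Ccl11 probe at 81802230 to 81802289, the Ccl12 probe at 81842868 to 81842927 and the Ccl8 probe at 81856266 to 81856325. Each probe is 60 bases long, and exon and UTR positions were not analysed here. The bright responders Ccl2 and Ccl7 are 9.9 kb apart by probe, Ccl11 follows 15.4 kb after the second Ccl7 probe, and Ccl12 a further 40.6 kb on.

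In the gene order of GRCm38.p6 no other protein-coding gene stands between the 5 members. Of the 5 protein-coding genes on either side, 8 were measured, and 0 passed the mean response test with limma (1, Cct6b, had an unadjusted p under 0.05). Over all genes 10.5% rose and 10.8% fell, and 8 genes are too few to set the flanks apart from these shares. Ccl1, a T cell attractant and the next gene after Ccl8, had log2 ratios of 0.090, 0.059 and 0.0029 at 1, 2 and 4 h (mean 0.051, limma adjusted p = 0.234). With processed signals the mean of Ccl1 was 0.35 (limma adjusted p = 0.152). Ccl1 and Spaca3 were dimmer than Ccl11 (mean log2 signals of 6.18, 6.34 and 6.47), so their small ratios do not show that they did not respond. On the other side Asic2, an ion channel gene, had a mean of -0.020 (limma adjusted p = 0.585), and Myo1d, a myosin gene, of -0.025 (limma adjusted p = 0.582).

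A wider list of chromosome 11 genes held 13 measured genes, of which 3 rose and 1 fell (10.5% and 10.8% over all genes). This list and the receptor, chemokine, factor, signalling and decay lists below were chosen with earlier results of these data known. Their counts are therefore description alone. Rffl, an E3 ubiquitin ligase gene, rose by 0.75 ± 0.057 (SE, n = 3 times, limma adjusted p = 0.00189) and Slfn2, a Schlafen gene of immune cells, by 0.52 (limma adjusted p = 0.00699). Psmd11, a proteasome subunit gene, rose by 0.13, a call that ended with median centring (-0.043) and with processed signals (0.12, limma adjusted p = 0.0858). The median of the list was 0.030 against 0.0037 over all genes, and it turned to -0.035 with median centring.

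**Figure D4:**
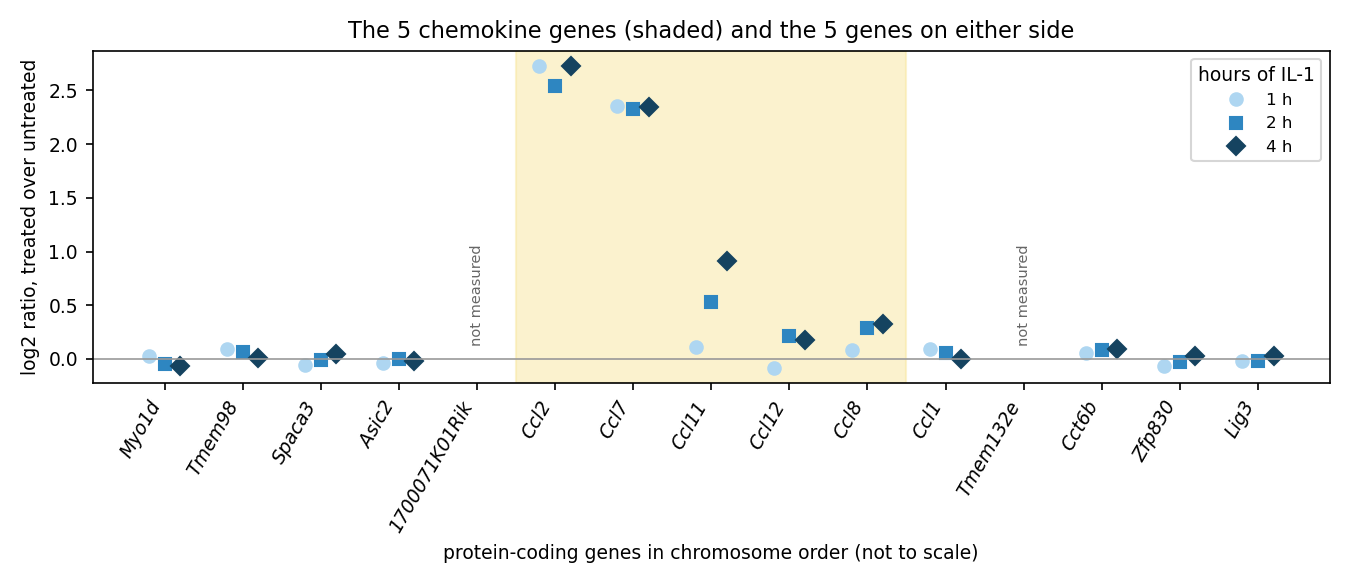
Log2 ratios of treated over untreated RNA (vertical axis) at 1, 2 and 4 h for the 5 chemokine genes (shaded) and the 5 protein-coding genes on either side, in chromosome order and not to scale (horizontal axis). Points are means of the 2 arrays of a time. All measured genes outside the shaded block lie close to 0 at the 3 times.

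Of 6 measured genes for chemokine receptors and scavengers 1 rose and 0 fell, against 10.5% and 10.8% of all genes. The scavenging receptor gene Ccrl2 rose by 0.15 ± 0.033 (SE, n = 3 times, limma adjusted p = 0.0275). Its ratios were 0.087, 0.010 and -0.25 at 1, 2 and 4 h with treated RNA in Cy5, against 0.37, 0.28 and 0.40 with treated RNA in Cy3, so the orientations differed, and the call ended with processed signals (limma adjusted p = 0.0658). Ccr3, the eotaxin receptor of eosinophils, was at 0.12 (limma adjusted p = 0.0546), and Ackr2, which clears inflammatory CC chemokines, at 0.0039 (limma adjusted p = 0.943). Ccr1, Ccr2 and Ackr4 did not pass the filter on dim signal in any condition.

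Among the other CC chemokines 4 of 12 measured genes rose and 1 fell (10.5% and 10.8% over all genes). Ccl20, which attracts cells with the receptor Ccr6, rose by 3.41 ± 0.20 (SE, n = 3 times, limma adjusted p = 0.00104). Ccl9 rose by 0.60 (limma adjusted p = 0.000602), Ccl17 by 0.36 (0.00136) and Ccl5, a T cell and eosinophil attractant, by 0.34 (0.00433). Ccl27a, an attractant of skin-homing T cells, was at -0.11 and fell (limma adjusted p = 0.0397), whereas with median centring, processed signals, the smaller offset or no background correction 0 genes of the list fell. Ccl24, another eotaxin, was at 0.033 and did not pass (limma adjusted p = 0.406). It was dimmer than Ccl11 (mean log2 signals of 6.05 and 6.47), and its mean was 0.21 with processed signals (limma adjusted p = 0.495). Its small ratio does not show that Ccl24 did not respond. The median of the list was 0.043, and 0.091 with median centring and 0.27 with processed signals.

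Of 11 measured genes for other factors that act on monocytes and eosinophils 10 rose and 0 fell, against 10.5% and 10.8% of all genes, and the list median was 1.10, 0.81 and 0.48 at 1, 2 and 4 h. This list was chosen with earlier results of these data known, so its counts are description alone and do not measure enrichment. With processed signals 8 rose, against 3.37% of all genes, and the medians were 1.28, 1.38 and 1.06, so the decline over time depends on the processing. Il6 rose by 2.74, the adhesion molecules Icam1 and Vcam1 by 2.21 and 1.29, the membrane-bound chemokine Cx3cl1 by 1.20, and the growth factor genes Csf2 and Csf1 by 1.19 and 0.80. Csf1 and Csf2 had falling slopes (-0.31 and -0.47, limma adjusted p = 0.0169 and 0.00854), as did 0.212% of all genes. Their direction was opposite to that of Ccl11, which was not tested as a difference. Both slope calls ended with processed signals and with offset 16, where 0 genes had a falling slope that passed. The Csf2 signal was dim, and its mean response was 3.67 with processed signals. Il33, a cytokine of skin stroma that activates eosinophils, was at 0.012 and did not pass (limma adjusted p = 0.792). Its signal was dim (mean log2 signal 6.17), so the small ratio does not show that Il33 did not respond.

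In the list of IL-1 receptor signalling 6 of 24 measured genes rose and 3 fell (10.5% and 10.8% over all genes). The NF-kB subunit genes Nfkb1 and Rela rose by 0.99 and 0.57 and the receptor gene Il1r1 by 0.54 (limma adjusted p = 0.00159, 0.00306 and 0.00113). The 3 that fell were Fos (-0.32), Il1rap (-0.11) and Mapk8 (-0.099), with limma adjusted p = 0.00292, 0.0222 and 0.0381. With processed signals 1 gene of this list fell, Fos (-0.77), and 6 rose. Of genes for mRNA decay and proteolysis 7 of 12 rose and 0 fell (10.5% and 10.8% over all genes). The RNase gene Zc3h12a, whose product was first described as induced by CCL2 in human monocytes, rose by 1.64 (limma adjusted p = 0.00357), and the protease genes Mmp9 and Mmp3 by 0.57 and 0.52. With processed signals 3 genes of that last list rose and 0 fell, while 3.37% of all genes rose and 2.63% fell. With median centring 2 genes of that last list fell and 6 rose, and 7 rose and 7 fell in the signalling list, while 5.07% of all genes rose and 25.9% fell. The median of the signalling list was 0.034, against -0.0075 with median centring and 0.024 to 0.043 with the other scalings.

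The genes with the most similar courses were sought by the root mean square difference of the log2 ratios over the 3 times. For Ccl2 they were Il6 (0.273), Ccl7 (0.331) and the NF-kB inhibitor gene Nfkbia (0.531). For Ccl7 they were Icam1 (0.302), Ccl2 (0.331) and Il6 (0.441). These distances include the saturated Ccl2 spots. Without saturated spots the same 3 genes were nearest to Ccl2, at 0.295, 0.468 and 0.598, and for Ccl7 Il6 came before Ccl2 (0.468). For Ccl11 they were the histocompatibility gene H2-T10 (0.0535), the protease inhibitor gene Serpinb2 (0.0670) and the matrix proteoglycan gene Dcn (0.0865), with log2 ratios at 4 h of 0.99, 1.01 and 0.80. For Ccl12 they were Taf1c, Cdca7 and Cacna1g (0.0260 to 0.0377) and for Ccl8 Car2, Tyk2 and Slco2a1 (0.0312 to 0.0366). Genes of small ratio have many near neighbours by this measure, so the last names carry little.

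All 12 fibroblast markers were well above background on 6 of 6 arrays in both treated and untreated RNA. Of 11 markers of macrophages and monocytes, which can also make these chemokines, 10 were so in both. Over all 41174 probes, 30637 passed the less strict filter on dim signal. In the fibroblast list 4 rose, Twist2 (1.26) the most, and 1 fell, Col3a1 (-0.25). The summed normalized signal of the macrophage and monocyte markers was 4770 to 5226 in treated and 4543 to 4885 in untreated RNA, most of it from Lyz2. In this list Cd14 (0.17), Csf1r (0.13), Fcer1g (0.11) and Lyz2 (0.086) rose and Tyrobp (-0.12) fell (limma adjusted p = 0.0185 to 0.0389), against 10.5% and 10.8% of all genes. Ptprc, Adgre1 and Aif1 were at -0.026, -0.0087 and -0.0052 and did not pass, and Itgam was well above background on 3 treated and 1 untreated of 6 arrays each. Of the other lists, 6 of 7 keratinocyte, 2 of 5 endothelial, 2 of 4 mast cell, 0 of 4 melanocyte and 3 of 3 T cell markers were well above background on all arrays in treated RNA, and Cdh1 and Pecam1 on none. The part of such cells in the chemokine values was not tested. In bulk RNA a change in the number of cells of a type and a change in RNA per cell cannot be told apart.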

How the data were processed

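RNA of treated and untreated fibroblasts was measured on 6 two-colour arrays. Per the file headers, images were quantified by Agilent Feature Extraction 7.5.1. The deposited intensity values are the mean brightness of a spot, its local background, and processed signals after spatial detrending and dye normalization. The authors' value table is on a log2 scale. Each column in it matched, for 100% of spots (tolerance 0.001), the treated over untreated processed ratio of its dye-swap partner, so columns and scanner files are crossed within each pair. Pair means do not change if the table is the crossed one, and every sign given here turns if the scanner files are. The direction used rests on the dyes in the labels. With it, genes known as IL-1 targets were higher in treated RNA (mean log2 ratios of 2.74 for Il6, 3.41 for Ccl20 and 2.21 for Icam1, and 3.02 for Nfkbia at 1 h), and all of them would be lower with the signs turned. The medians of its columns were -0.026 and 0.0261 (1 h), -0.0309 and 0.0311 (2 h), and -0.0325 and 0.0283 (4 h).

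Background was corrected with normexp (offset 50) and dyes were balanced by loess on each array, controls having weight 0, using limma 3.58.1 in R 4.3.3. Outlier flags were left out and saturated spots stayed in. Probes had to be well above background in all channels of 1 or more conditions (30637 of 41174 probes). That flag also marked 0 to 14.3% of 314 negative control spots per channel. Median signals were 121.8 to 137.7, and the number of arrays limits the precision. The brightest probe stood for a gene, named through the RefSeq accession where possible (22072 probes). Pairs were averaged, which gave 3 values per gene, and tested with lmFit and eBayes, two-sided. The ratio against untreated RNA leaves out that RNA's own spread. The p-values of the mean response measure only the spread between the 1, 2 and 4 h values, which includes a gene's own change over time. Those of the slope measure the spread around a straight line in log2 time, with 1 residual degree of freedom. Either spread may be partly technical, since nothing states that the samples came from separate cultures. Channel levels were taken after loess and Aquantile, and promoter windows were aligned with Biopython 1.88. The fits were tested on simulated data. Alternatives were other background corrections, scalings, filters, probe rules and variance models, a replicate block, and leaving out arrays, times or saturated spots.

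Same-numbered arrays deviated together (correlations of 0.781 to 0.855 across genes). Their numbers stand for the dye orientation in the labels, and with 2 arrays a time the deviations mirror each other. The members and lists were chosen with earlier results of these data known. Genes were named as all members with all probes, list genes with a called mean of at least 0.5 in size or needed to account for a list, and the 3 nearest courses. The flanking genes fall outside this rule and were chosen from the gene order after values were seen.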

Additional observations from a re-analysis of the deposited data

Results flagged for a closer look

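Ccl11 differed between times of treatment. Its slope was 0.40 on the log2 scale for each doubling of time (limma adjusted p = 0.00866), and the log2 ratio at 4 h exceeded that at 1 h by 0.81 with treated RNA in Cy5 and by 0.80 with treated RNA in Cy3. Of the other members none passed the slope test (limma), and Ccl12 and Ccl8 had unadjusted p-values of 0.0302 and 0.0111.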

How the results depend on the processing

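The mean response of Ccl2 and Ccl7 passed under all 16 alternatives run. That of Ccl11 passed under 9 of 16 and did not with processed signals or the authors' value table (1.40 each), offset 16 (0.84), a trended robust variance (0.52), without the 2 h sample (0.51) or the 4 h sample (0.32), or without the arrays with treated RNA in Cy5, and it ranged from 0.36 to 0.67 when either dye orientation was left out. Ccl8 did not pass with processed signals or the value table (0.56 each), without the 2 h (0.20) or 4 h sample (0.19), or without the arrays with treated RNA in Cy3, with a range of 0.14 to 0.32 over the orientations. Ccl12 passed without the 1 h sample (0.19). The Ccl11 slope did not pass with processed signals or the value table (0.88 each) or offset 16 (0.62). Slopes that were near 0 turned sign without a call for Ccl7 with median centring (0.0021), and over the orientations they ran from -0.015 to 0.0030 for Ccl7 and from -0.0047 to 0.010 for Ccl2. The 1 h ratio, which has no test, ran from -0.053 to 0.27 for Ccl11 and from -0.18 to 0.014 for Ccl12 over the orientations. The cause was not tested in any of these cases.

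Over all genes, the mean response called 748 higher and 585 lower with processed signals or the value table, 1126 and 5754 with median centring, 473 and 343 without the 2 h sample, and 3283 to 4744 higher and 3553 to 4281 lower with 1 orientation left out, against 2335 and 2396. Slopes in limma numbered 0 rising and 0 falling with processed signals or the value table (1092 and 931 at an unadjusted p under 0.05) and with offset 16 (1158 and 923). They numbered 217 and 240 without background correction, 237 and 177 with median centring, 60 and 74 with every probe as a feature, 231 and 240 with a trended robust variance, and 9 to 13 and 15 to 17 with 1 orientation left out, against 36 and 47. Genes at least 2-fold higher numbered 24, 21 and 13 at 1, 2 and 4 h with median centring, 82 at 2 h and 57 at 4 h with processed signals or the value table, 47 at 4 h with offset 16, and 53 to 72, 42 to 67 and 42 to 50 with 1 orientation left out. With the replicate block 165 slopes were rising and 170 falling, and the block changed no member's call (Ccl11 mean response 0.52, limma adjusted p = 0.0109). No fit with slide or scan as a block was run, because each array has its own slide. Low signal limits what can be said of Ccl11, Ccl12 and Ccl8, and saturation in Cy5 limits Ccl2.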
